A study of Rattus norvegicus with 164 samples.

Results

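Mitochondrial ribosomal protein genes were examined in bulk RNA sequencing of prelimbic cortex, part of the medial prefrontal cortex, in heterogeneous stock rats, which are outbred descendants of several inbred strains. Members were the genes on autosomes whose symbol is Mrpl or Mrps followed by a number and at most 1 letter, and whose level averaged 1 or more across 130 libraries. Level here means log2(CPM + 1), where CPM is the estimated count per 1000000 of a library. Of 38354 genes in the table, 15150 reached that level, 14632 of them on autosomes, and 74 were members. By symbol, 46 of them belong to the large and 28 to the small subunit, although the products of Mrps18a and Mrps30 are known to sit in the large subunit. Means ran between 3.57 for Mrps28 and 6.07 for Mrpl49, so none of the 74 was near the limit. The symbol rule also matched Mrps21l, whose mean was 0.0028, and 3 genes with similar symbols that it does not match are not members. Of these, Mrpl41l1 came nearest with a mean of 0.74.

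Each library came from 1 rat, and the labels divide the rats only by identifier and by 1 remark. In 68, called decimal here, it is a decimal number, and in 62 it is a code beginning with E21DCD. Of these 62, 11 carry a remark that a genotype mismatch had been corrected and are called reassigned, and the other 51 are called E21DCD. A further 34 labelled samples were not analysed here. No treatment, age or batch divides the rats in the sources used here, and p-values measure the spread between rats. Summed estimated counts per library ran between 15122563 and 55950487. Libraries were not alike in tissue. In 11 decimal libraries the mean level of 12 genes of striatal projection neurons, 8.37 to 8.93, lay above that of 10 genes of cortical glutamatergic neurons, 2.15 to 4.80, which goes against the labelled tissue. A further 7 libraries, decimal replicate 15 and E21DCD replicates 2, 4, 8, 19, 30 and 49, had extreme scores on the first principal component of genes other than the members. In the remaining 112 the glutamatergic mean was 6.85 to 7.45 and the striatal mean 3.75 to 5.62. Both sets of libraries were picked out with genes other than the members, but that component is itself related to the members. Levels in both sets are therefore given as a description with no test.

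Mitochondrial ribosomes translate the few messenger RNAs that mitochondrial DNA encodes, which code for core subunits of the respiratory chain and of ATP synthase. Their ribosomal RNAs come from mitochondrial DNA, but all of their proteins are encoded in the nucleus, made on cytosolic ribosomes and imported. Each ribosome holds 1 copy of most of these proteins, and neurons rely heavily on the respiratory chain that the ribosomes help to build.

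The 74 members lay on 18 autosomes, with 12 each on chromosomes 1 and 10, the highest number on a chromosome. Promoter windows of 300 bases, 250 before and 50 after a gene's start, were found for 60 of them in the RefSeq table of the GRCr8 build. The other 14 were not used here. In 32 windows the start was the position in the deposited table. Of 3 motifs searched on both strands, CCGGAAG, a core bound by ETS family factors, was in 21 member windows (35.0%), in 15.5% of the windows of 12338 other genes tested and in 8.75% of all 33469 windows. AAGATGGC, the core bound by YY1, was in 15 member windows (25.0%), in 4.83% of those of the other genes tested and in 3.17% of all. A form of the NRF1 site of 10 bases that reads the same on both strands, printed in capitals in the lines of Mrpl17 and Mrpl32 below, was in 4 member windows (6.67%), in 1.63% of those of other genes tested and in 0.852% of all. None of the 3 contains another, but the ETS core can overlap the YY1 core by AAG. Any of the 3 was in 32 member windows (53.3%) and in 20.4% of those of the other genes tested. A match is a description of these letters and does not show that a factor binds there.

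Windows from 120 bases before the start to 30 bases from it on are printed for 4 members, to show each motif where it lies near a start, with the motifs in capitals. Mrps18a (chr9:22367351-22367500, minus strand) holds the ETS core followed by the YY1 core at the start itself. Mrpl57 (chr15:36086337-36086486, plus strand), 1 of the members that follow the others most closely, holds the ETS core. Mrpl17 (chr1:169575670-169575819, minus strand) and Mrpl32 (chr17:55260531-55260680, plus strand) hold the NRF1 form.
Mrps18a: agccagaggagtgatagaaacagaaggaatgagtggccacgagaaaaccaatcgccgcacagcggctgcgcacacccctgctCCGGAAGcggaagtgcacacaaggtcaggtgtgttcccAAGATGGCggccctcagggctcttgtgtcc
Mrpl57: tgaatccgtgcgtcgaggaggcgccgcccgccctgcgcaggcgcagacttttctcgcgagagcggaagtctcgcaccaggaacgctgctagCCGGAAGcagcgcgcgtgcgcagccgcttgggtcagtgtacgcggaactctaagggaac
Mrpl17: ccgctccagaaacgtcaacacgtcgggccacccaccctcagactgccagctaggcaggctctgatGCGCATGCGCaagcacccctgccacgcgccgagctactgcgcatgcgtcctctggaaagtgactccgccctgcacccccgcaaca
Mrpl32: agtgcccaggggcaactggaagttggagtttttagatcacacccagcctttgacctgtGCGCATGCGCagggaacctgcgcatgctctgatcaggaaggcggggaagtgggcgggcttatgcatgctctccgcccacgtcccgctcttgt
The median r of a member with the mean of the others, over the 112 libraries, was 0.72 for the 21 members with the ETS core and 0.69 for the 39 without, a small difference. For the YY1 core the medians were 0.67 with and 0.71 without, and for the NRF1 form 0.59 for the 4 members with it and 0.71 for the 56 without.

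Starts of other genes were often close by. For 28 of 74 members (37.8%) another gene tested starts within 1 kb, as it does for 16.9% of all autosomal genes tested. Several of these neighbours also serve mitochondria. The starts of Mrps11 and Mrpl46, of the small and the large subunit, are 15 bases apart, and their r over the 112 libraries was 0.57. Mrps12, a protein of the decoding centre, starts 92 bases from Sars2, the mitochondrial seryl-tRNA synthetase, but their r was -0.11. Mrpl36 starts 46 bases from Ndufs6, a complex I subunit, with an r of 0.30, Mrpl47 starts 185 bases from Ndufb5, of the same complex, with an r of 0.22, and Mrpl43 starts within 1 kb of Twnk, the helicase of mitochondrial DNA, with an r of 0.41. Over the 27 such pairs the median r was 0.12, and 0.038 after 10 principal components of the other genes had been removed. The lowest after removal was Mrpl55 with Guk1, a guanylate kinase, 80 bases away (-0.41).

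Members moved together from library to library. Over 130 libraries the median r between 2 members was 0.57, with quartiles of 0.38 and 0.70, and 98.2% of the 2701 pairs were above 0. Over all pairs of autosomal genes tested the median was 0.075. The 112 libraries gave a median of 0.50 for members and 0.017 for all genes, so the libraries that stand apart do not carry the coupling alone. Coupling was not particular to the members. Over the 112 the median was 0.64 within 41 nuclear oxidative phosphorylation genes and 0.82 within 40 cytosolic ribosomal protein genes. Between members and these lists it was 0.55 and 0.48. Within the other mitochondrial lists measured this way it was lower, at 0.063 to 0.43. Within the series, the median between members was 0.49 over decimal libraries, against 0.12 for all genes, and 0.71 over E21DCD libraries, against 0.022 for all genes. The E21DCD libraries include 6 of the 7 that stand apart, and the decimal libraries include the 11. The 2 medians thus do not compare like sets of libraries. These r values share libraries, depth and scaling and are given as a description. Median-of-ratios scaling gave 0.68 over 130 and 0.46 over 112 libraries.

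Coupling was alike within and between the subunits. Over the 112 libraries the median r was 0.49 within the large subunit, 0.50 within the small subunit and 0.50 between them. The mean z-scores of the 2 subunits had an r of 0.98 with each other over 130 libraries. Removing 10 principal components of the other genes left a median of 0.053 between members, against 0.0018 for all genes, over 130 libraries. Nearly all genes behind the second value, but no member, went into the components, so the 2 values are not a like comparison. These components, made without the members, accounted for a median of 82.7% of a member's variance and for 97.7% of the variance of the members' mean z-score. Most of the joint movement of the members thus lay along components made from other genes.

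**Figure D1:**
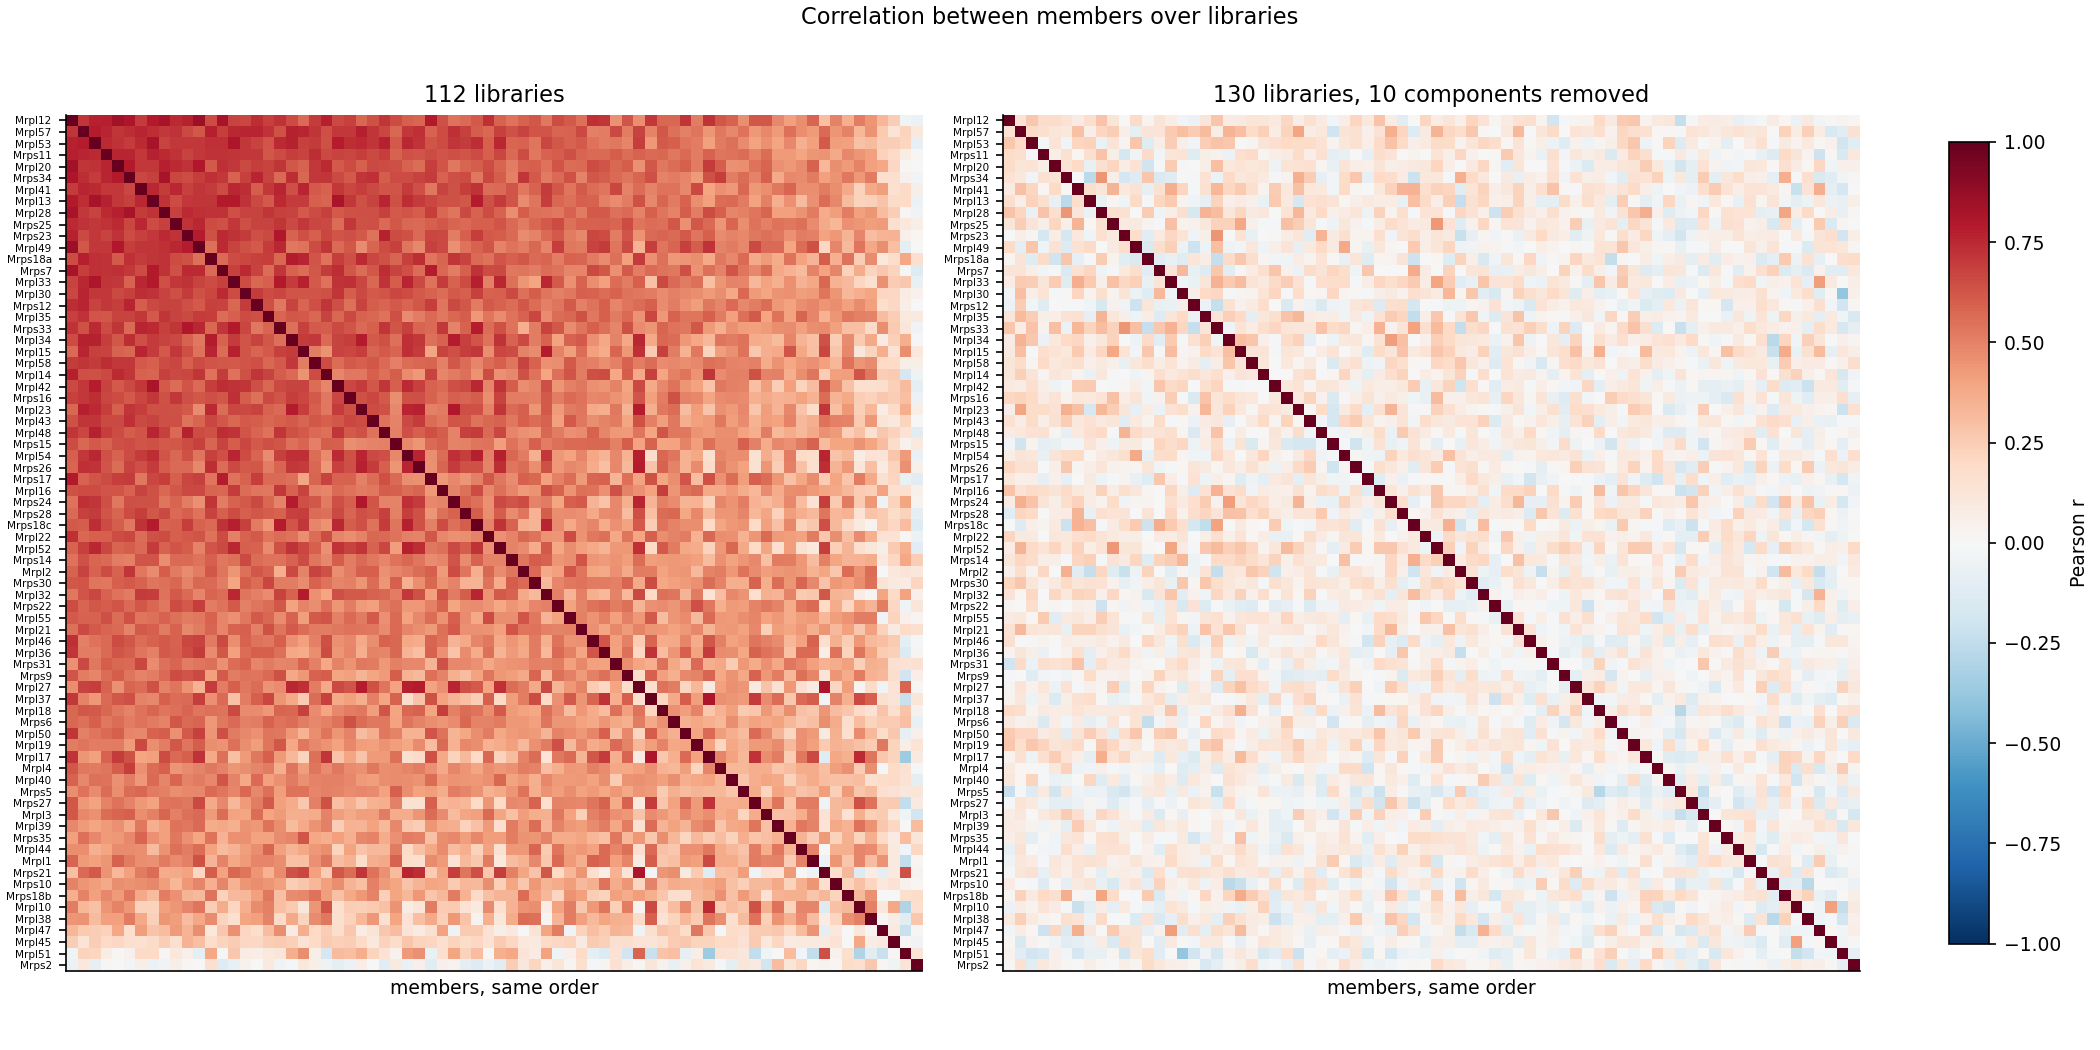
Pearson r between every 2 of the 74 members over 112 libraries (left) and over 130 libraries after 10 principal components of the other genes were removed (right), from blue at -1 to red at 1. Rows and columns are members, ordered by their r with the mean of the others over the 112 libraries. The left panel is red apart from the last rows, with Mrps2 at the foot at 0.049, and the right panel is near white.

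Single members followed the mean of the others to different degrees. The median of these r values was 0.78 over 130 and 0.71 over 112 libraries, and 49 members reached 0.7 over 130. The highest over 130 libraries were Mrpl20 (0.92), Mrpl57 (0.91), Mrps23 (0.91), Mrpl41 (0.91) and Mrps33 (0.88). Mrpl20 lies in the large subunit, and its level was 5.70 to 6.06 in the 7 libraries, with a median of 6.01, and 4.88 to 5.84 in the 112, with a median of 5.30. The ranges overlap at their edge. Over the 112 libraries Mrpl12, whose product forms part of the stalk of the large subunit, was highest, at 0.88.

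At the other end, 5 members had an r under 0.4 over 130 libraries. Mrps2, a small subunit protein, had 0.021, and 0.049 over the 112. Its level was 5.49 to 6.07 in the 112 libraries with a median of 5.86, and its SD over 130 libraries was 0.13. That SD was 0.55 times the trend of the SD on the mean over all genes, below most genes of its level. Mrps5 varied still less, with 0.44 times the trend, and its r with the others was 0.30 over 130 but 0.60 over 112 libraries. Mrpl3 likewise had 0.34 over 130 and 0.58 over 112. Its lowest level, 4.03 in decimal replicate 15, was below every one of the other libraries by scaling to the summed count. In that library median-of-ratios scaling raised the median gene by 0.85. Mrpl47 (0.27 and 0.31) and Mrpl45 (0.36 and 0.27) stayed low over 130 and 112 libraries. Mrpl51 was low only over the 112, at 0.16, against 0.54 over 130.

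The ratio of a member's SD to the trend was under 1 for 48 of 74 (64.9%), with a median of 0.92, while it was under 1 for 51.5% of all genes tested, with a median of 0.99. The 6 largest ratios were those of Mrpl52 (1.54), Mrpl54 (1.53), Mrps21 (1.47), Mrpl23 (1.40), Mrps24 (1.35) and Mrps18c (1.34), and Mrpl52 ranked 2347 of 15150 genes tested. These 6 were coupled more closely to each other than to the other members. Their median r among themselves was 0.72 over the 112 libraries, and 0.49 with the 68 others. Over 130 libraries it was 0.83 among themselves and 0.66 with the others. The 6 were picked by their values, so this is a description.

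Other genes of the mitochondrial ribosome carry symbols outside the rule. Of 7 listed, 6 were tested: Dap3, Ptcd3, Chchd1 and Aurkaip1, which code for small subunit proteins, Gadd45gip1, of the large subunit, and Kgd4, formerly counted to the small subunit and now known as part of the oxoglutarate dehydrogenase complex. The mean z-score of the 5 without Kgd4 had an r of 0.91 with that of the members over the 112 libraries and of 0.85 over 130. Singly, r with the members was 0.79 for Kgd4, 0.77 for Chchd1, 0.75 for Aurkaip1, 0.59 for Gadd45gip1, 0.46 for Ptcd3 and 0.45 for Dap3. Ptcd3, which binds RNA, had an r of only 0.064 over 130 libraries.

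Other lists of the mitochondrial system followed the members unequally. The 41 nuclear genes of oxidative phosphorylation had an r of 0.97 with the members' mean z-score over 130 libraries (Spearman's rho 0.97) and of 0.96 over 112. The 40 cytosolic ribosomal protein genes had 0.84 over 130 and 0.74 over 112. The 23 genes for assembly of the mitochondrial ribosome and modification of its RNA had 0.69 over 130 and 0.82 over 112. For 18 translation factors r was 0.084 over 130 and 0.61 over 112 libraries, and for 12 chaperones and proteases 0.076 and 0.74. The 17 mitochondrial aminoacyl-tRNA synthetases, which charge the transfer RNAs that these ribosomes use, had -0.12 over 130 and 0.35 over 112. For these 3 lists r over 130 libraries rests on few libraries: leaving out the 2 farthest from the list's median gave 0.37 for translation factors, 0.36 for chaperones and proteases and 0.28 for synthetases, and Spearman's rho over all 130 was 0.55, 0.62 and 0.36. The 11 regulators of mitochondrial biogenesis ran against the members, with -0.57 over 130 and -0.65 over 112 libraries. This relation was weaker within decimal libraries, at -0.49, and at -0.18 without the 2 farthest from the list's median. Within E21DCD libraries the values were -0.84 and -0.82. Leaving out the 2 libraries farthest from the median of each list changed no sign for the lists with r beyond 0.5, and gave 0.97 for oxidative phosphorylation over 130 libraries.

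**Figure D2:**
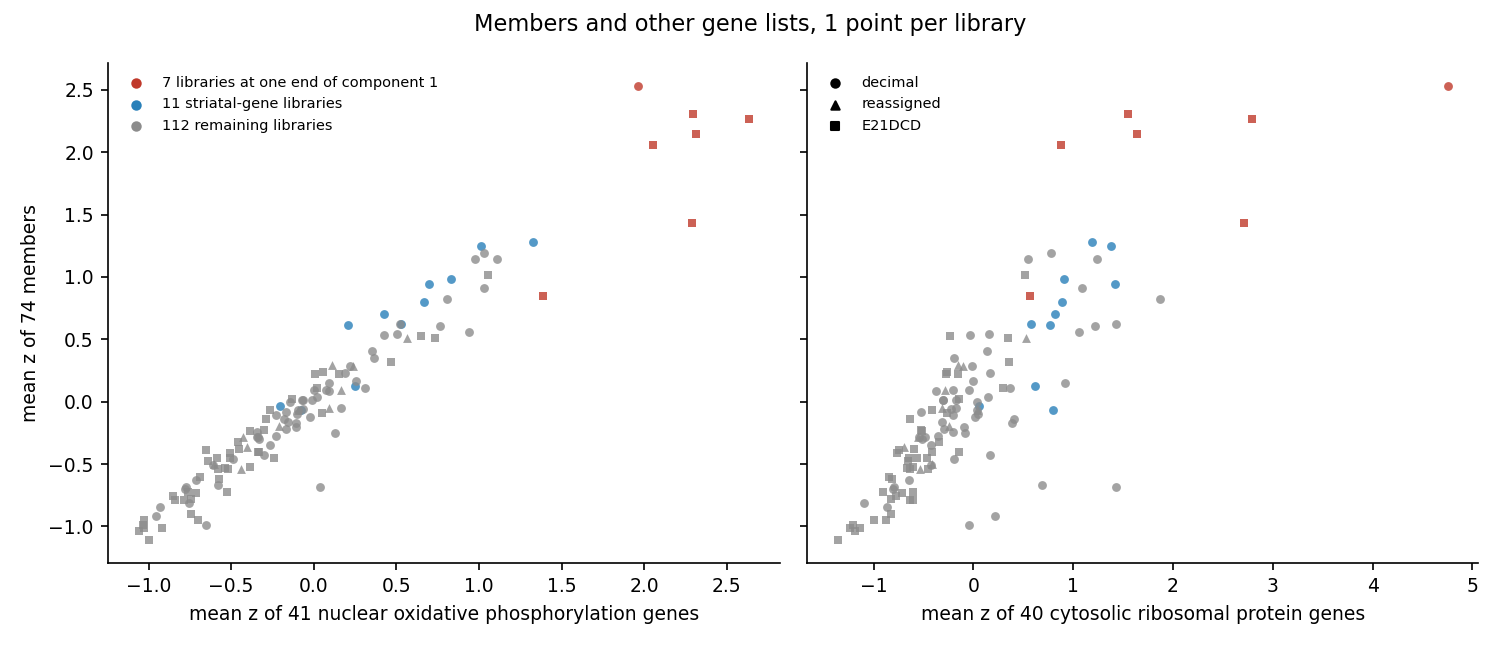
Mean z-score of the 74 members (vertical) against that of 41 nuclear oxidative phosphorylation genes (left) and 40 cytosolic ribosomal protein genes (right), 1 point per library. Colour marks the 7, the 11 and the 112 libraries and the shape marks decimal, reassigned and E21DCD libraries. The left points lie along a line (r = 0.97), and the right points scatter more (r = 0.84), with 6 of the 7 libraries above all others in the members' mean z-score.

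Among single genes outside the list, the 10 with the highest r to the members' mean over the 112 libraries were Ap2s1 (0.94), Ndufv2 (0.93), Swi5, Hcfc1r1, Park7, Ppia, Nme2, Atp6v1f, Myl6 and Phb1 (0.90). Ndufv2 is a complex I subunit, Phb1 codes for prohibitin of the inner mitochondrial membrane, and Ap2s1 for the small subunit of the endocytic adaptor AP2. Of the 100 most alike, 23 were oxidative phosphorylation genes by symbol, beside 93 of 14558 genes, and 10 were proteasome genes, beside 38. Cytosolic ribosomal genes were 0 of the 100, beside 101 of the 14558. The 5 lowest were Wdfy3 (-0.88), Med13l, Nf1, Arid1a and Srcap (-0.86).

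The log2 of the summed count had an r of -0.051 with the members' mean z-score over 130 libraries. The number of genes above 0 had -0.33 over 130 and -0.16 over 112. The first 2 components of the other genes, which hold 33.2% and 21.0% of their variance over 130 libraries, had r values of 0.47 and 0.68 with the members. Over the 112, where the first 2 hold 17.6% and 8.96%, the values were 0.46 and 0.79. Cell type lists had weaker relations over the 112: 0.46 for interneurons, 0.40 for microglia, 0.20 for oligodendrocytes, 0.10 for astrocytes and -0.29 for glutamatergic neurons. In bulk tissue, fewer cells of a type and less RNA per cell cannot be told apart.

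The 7 libraries with extreme scores on the first component held most of the highest member levels. The mean over the 74 members was 4.93 to 5.42 in them, with a median of 5.24, against 4.45 to 4.98 in the 112, with a median of 4.66. Summed over the members, CPM was 2426 to 3838 in the 7 and 1710 to 2459 in the 112. By both measures the ranges overlap only at their edge. Of 74 members, 71 had a higher mean in the 7, with a median difference of 0.56, while the median of all genes tested was -0.20. In 11 members (14.9%) each of the 7 lay above every one of the 112, which 1.59% of all genes did, and no member lay below, which 6.26% of all genes did. Median-of-ratios scaling put 74 of 74 higher, with a median of 0.75 against -0.030 for all genes, and 20 members above the range of the 112, as for 3.65% of all genes, and 0 below it, as for 4.14%. Mrps5, Mrpl47 and Mrps22 had lower means in the 7 by scaling to the summed count (-0.10, -0.042 and -0.029) and higher ones by median-of-ratios (0.095, 0.15 and 0.16).

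Levels of the most changed members show the gap. Mrps24 of the small subunit had 5.31 to 5.95 in the 7 libraries, with a median of 5.40, and 3.80 to 4.88 in the 112, with a median of 4.39. The groups do not overlap. Mrpl52 had 5.17 to 6.41 in the 7 and 4.10 to 5.07 in the 112, again with no overlap, and Mrpl23, whose product lies near the exit of the large subunit, had 4.78 to 6.39 in the 7 and 3.62 to 4.58 in the 112. The 7 also had higher means of oxidative phosphorylation genes, 7.43 to 7.77 against 6.75 to 7.34 in the 112, but translation factors of 3.99 to 4.44 against 4.38 to 4.62. Summed counts were 15122563 to 37737309 in the 7 and 16926537 to 55950487 in the 112, and genes above 0 were 20516 to 24328 and 22643 to 26540. What part these values have in the difference was not tested.

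One of the 7, decimal replicate 15, stands apart further. By scaling to the summed count it holds the highest level of 36 members and the lowest of 7: Mrps27, Mrps2, Mrps22, Mrpl3, Mrpl10, Mrps14 and Mrps31. A single gene, Zfp532, takes 15.1% of its counts, where the highest share of a top gene in the 112 was 1.08%. Median-of-ratios scaling raised the median gene of this library by 0.85, and its mean member level from 5.42 to 6.30. Whether those 7 members are also lowest there by that scaling was not tested. The other 6 libraries still had mean member levels of 4.93 to 5.26 and summed values of 2426 to 3014 CPM. In total 67 members had their highest level in 1 of the 7.

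The 11 libraries with striatal gene levels differed less from the 112. The mean member level was 4.72 to 5.02 in them, with a median of 4.89, so the range overlaps that of the 112. Of 74 members, 68 had a higher mean than in the 112, with a median difference of 0.17, and 0.044 for all genes. No member lay wholly above or below the range of the 112, as 5.15% and 7.1% of all genes did. By median-of-ratios scaling 64 of 74 had a higher mean, and again no member lay outside that range, as 4.59% of all genes lay above and 8.13% below. The largest differences were those of Mrps16 (0.70), Mrpl52 (0.70) and Mrps21 (0.67), and the lowest those of Mrpl37 (-0.18) and Mrpl28 (-0.17).

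**Figure D3:**
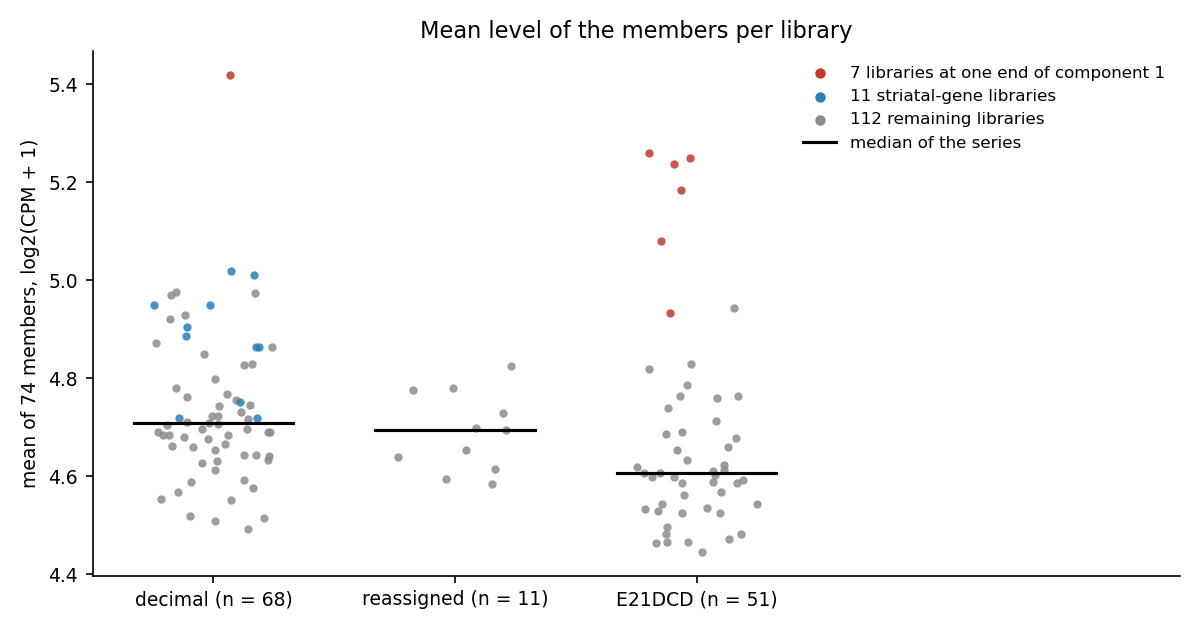
Mean level of the 74 members in log2(CPM + 1) in each library, by decimal, reassigned and E21DCD series, with the median of each series as a line. Red points are the 7 libraries with extreme component scores (4.93 to 5.42), blue points the 11 with striatal gene levels (4.72 to 5.02) and grey points the other 112.

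The 2 large series were then compared gene by gene, which asks whether the decimal and E21DCD libraries differ in the members. With limma and a Benjamini-Hochberg adjusted p under 0.05 over the 15150 genes tested, 20 members (27.0%) were higher in decimal than in E21DCD libraries and 3 (4.05%) were lower, while 15.9% of all genes were higher and 13.2% lower. The median difference was 0.068 for members and 0.012 for all genes. Large subunit members were higher in 14 and lower in 3 of 46, and small subunit members higher in 6 and lower in 0 of 28. The counts depend on which libraries and covariates enter. Without the 11 libraries, 8 members (10.8%) were higher and 1 (1.35%) lower, against 5.89% and 4.01% of all genes. The lower one was Mrpl10 (-0.11 ± 0.04, limma adjusted p = 0.031). Without all 18, those being the 7 and the 11, 43 (58.1%) were higher and 0 lower, against 19.5% and 15.3%, with a median difference of 0.10. Median-of-ratios scaling over all libraries gave 14 (18.9%) higher and 4 (5.41%) lower, against 15.1% and 16.5% of all genes. The first component of all 130 libraries, which is not the one that picked out the 7, was then used as a covariate. With it, 4 (5.41%) were higher and 2 (2.7%) lower, against 5.43% and 3.12% of all genes. Of the 20 higher with all libraries, 19 were also called without the 18.

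The largest difference was that of Mrpl54, a large subunit protein. Its level in decimal libraries was 4.66 at the lowest, 5.11 at the median and 7.46 at the highest, against 4.25, 4.90 and 5.73 in E21DCD libraries. The ranges overlap widely, and the highest value is that of decimal replicate 15. The difference was 0.28 ± 0.06 (SE; limma adjusted p = 0.00054), and 0.25 ± 0.05 without that library (limma adjusted p = 0.00015). Mrps18c, 1 of 3 related proteins of the S18 family, had 3.44, 4.03 and 5.93 in decimal libraries and 3.47, 3.77 and 4.92 in E21DCD libraries. It differed by 0.21 ± 0.06 (limma adjusted p = 0.0074) over all libraries, by 0.17 ± 0.06 without the 11 (limma adjusted p = 0.067) and by 0.22 ± 0.05 without the 18 (limma adjusted p = 0.00015). Mrps16, Mrpl52 and Mrpl33 each differed by 0.19 over all libraries. Without the 11 they differed by 0.09, 0.10 and 0.14, and all 3 missed the threshold, with limma adjusted p values of 0.22, 0.37 and 0.11. Without the 18 they differed by 0.14, 0.20 and 0.22, and all 3 passed, with limma adjusted p values of 0.00098, 2.7e-05 and 2e-05.

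The smallest adjusted p values belonged to members with smaller differences. Mrpl47 had 3.69, 3.99 and 4.38 in decimal libraries and 3.21, 3.91 and 4.11 in E21DCD libraries, and its difference was 0.15 ± 0.03 (limma adjusted p = 0.0001). Mrpl32, which the m-AAA protease of the inner mitochondrial membrane processes before it joins the ribosome, had 3.39, 3.73 and 4.29 in decimal libraries and 3.17, 3.53 and 4.35 in E21DCD libraries, a difference of 0.19 ± 0.04 (limma adjusted p = 0.00018). Both series overlap over most of their range for both genes. In total 8 members were called higher with all libraries, without the 11 and without the 18, and 7 of them also by median-of-ratios scaling: Mrpl13, Mrpl16, Mrpl19, Mrpl32, Mrpl47, Mrpl54 and Mrps26.

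The members lower in decimal libraries were Mrpl37, Mrpl39 and Mrpl38, all found in mitochondrial but not bacterial ribosomes. Mrpl37 had 5.18, 5.48 and 5.85 in decimal libraries and 5.30, 5.54 and 6.08 in E21DCD libraries, a difference of -0.09 ± 0.03 (limma adjusted p = 0.017). Without the 18 libraries it was -0.01 ± 0.03 (limma adjusted p = 0.74), and none of the 3 passed.

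**Figure D4:**
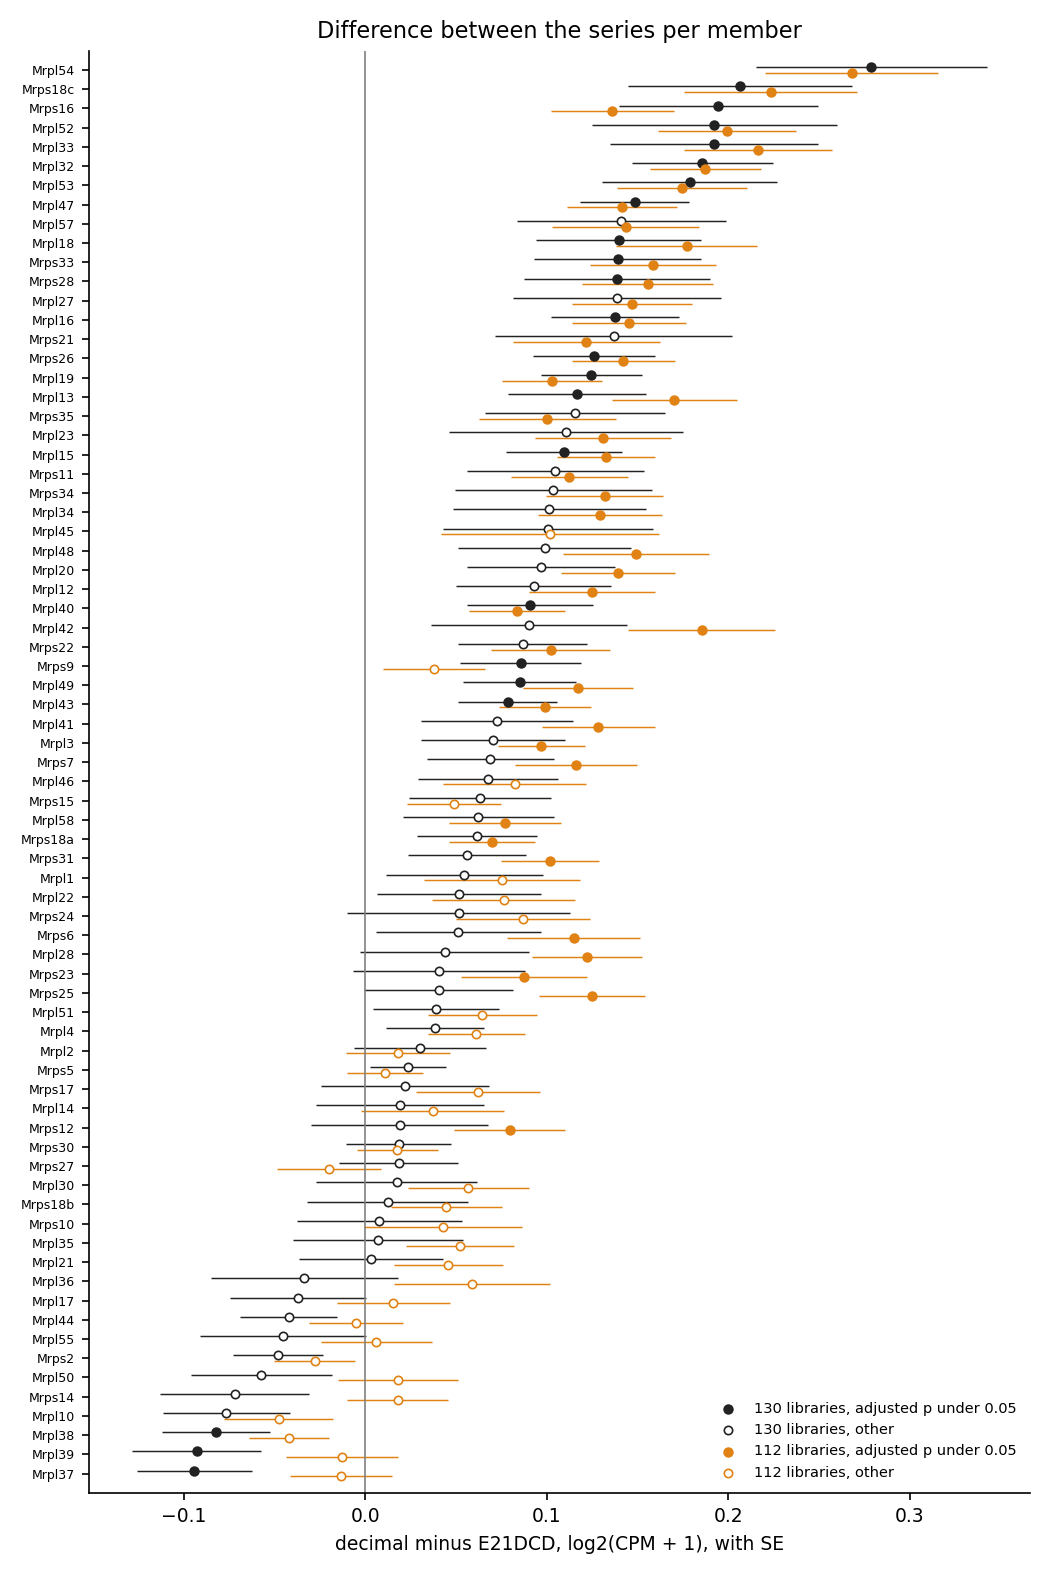
Difference between decimal and E21DCD libraries in log2(CPM + 1) for each of the 74 members, with its SE, for all 130 libraries (black) and the 112 (orange). Filled points passed an adjusted p under 0.05 in limma: 23 of 74 in black and 43 of 74 in orange. Mrpl54 is at the top, and 3 black filled points lie below 0.

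Lists measured beside the members also differed between the series. Of the cytosolic ribosomal proteins, 26 of 40 were higher in decimal libraries and 0 lower, with a median of 0.21, and without the 18 libraries 37 of 40. Of nuclear oxidative phosphorylation genes 7 of 41 were higher and 0 lower, and without the 18 libraries 26 were higher and 1 lower. Of the 5 genes of the mitochondrial ribosome with other symbols, Chchd1, Gadd45gip1 and Ptcd3 were higher, Chchd1 by 0.24 ± 0.06 (limma adjusted p = 0.0014). Translation factors were higher in 8 of 18, assembly factors higher in 6 and lower in 3 of 23, and aminoacyl-tRNA synthetases higher in 4 of 17. Cell type markers moved as well. Oligodendrocyte genes were higher in 10 of 10 with all libraries and in 10 of 10 without the 18, where their mean level was 6.21 to 9.89 in decimal libraries and 5.76 to 8.28 in E21DCD libraries. Microglia genes were higher in 5 of 8, striatal genes in 11 of 12 and glutamatergic genes lower in 10 of 10 over all libraries. Without the 18, striatal genes were higher in 5 and lower in 1 of 12 and glutamatergic genes lower in 3 of 10. Their part in the differences of the members was not tested.

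No member passed the threshold between reassigned and E21DCD libraries. With limma, 0 of 74 members and 0 of 15150 genes (0%) passed an adjusted p under 0.05, and 0 members and 396 genes had an unadjusted p under 0.05. The median difference of the members was 0.010, and single differences were -0.11 to 0.11. Mean member level was 4.58 to 4.83 in the 11 reassigned libraries and 4.45 to 5.26 in the E21DCD libraries. Without the 18 libraries 72 of 74 differences (97.3%) were above 0 with a median of 0.078, beside 58.5% of all genes with a median of 0.013. Of the members 14 (18.9%) had an unadjusted p under 0.05 by limma, as did 6.63% of all genes, and 0 members and 0 genes an adjusted one.

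Separated levels were looked for with a mixture of 2 normal distributions, which asks whether the libraries of a gene fall into 2 sets. With a distance between the means of 4 or more component SDs and of 1 log2 unit, 1 member was called, Mrps24, as were 11.1% of autosomal genes tested. The smaller set was fitted with 5.93% of the libraries, and the 7 libraries, at 5.31 to 5.95, were the highest, with the 11 at 4.64 to 5.03. Without the 18 libraries 0 members and 0.765% of genes passed. With 10 components removed and the first limits, 0 members and 0.376% of genes passed. With the limits then set to 3 SDs and 0.5 log2 units, 1 member passed, Mrpl45, and 1.03% of genes. That last setting was chosen after seeing the data.

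Mrpl45 varied apart from the other members. Its product lies at the exit of the large subunit and holds the ribosome to the inner membrane. The 10 components accounted for 18.1% of its variance, the least of any member. Its level over 130 libraries was 3.83 at the lowest, 4.37 at the median and 5.23 at the highest. In decimal libraries it had 3.85, 4.43 and 5.23, in reassigned 4.04, 4.23 and 4.71, and in E21DCD 3.83, 4.34 and 5.18, and the series did not differ past the threshold (0.10 ± 0.06, limma adjusted p = 0.18). After the components were removed, 3 normal distributions with an SD of 0.099 described its residuals better than 2, by a drop in the Bayesian information criterion of 16.8. A share over all genes is not given for this fit. The 3 sets had means of -0.22 in 73 libraries, 0.22 in 47 and 0.57 in 10. The sets adjoin: residuals reached 0.0041 in the lowest and began at 0.020 in the middle, where they reached 0.44, and began at 0.48 in the highest. Levels before removal overlapped, at 3.83 to 4.68, 4.25 to 5.18 and 4.71 to 5.23. All 3 sets held libraries of each series: 38, 7 and 28 of the decimal, reassigned and E21DCD libraries in the lowest, 24, 3 and 20 in the middle and 6, 1 and 3 in the highest. The 11 libraries were also spread over the sets, with 6, 4 and 1, and the 7 with 4, 3 and 0.

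**Figure D5:**
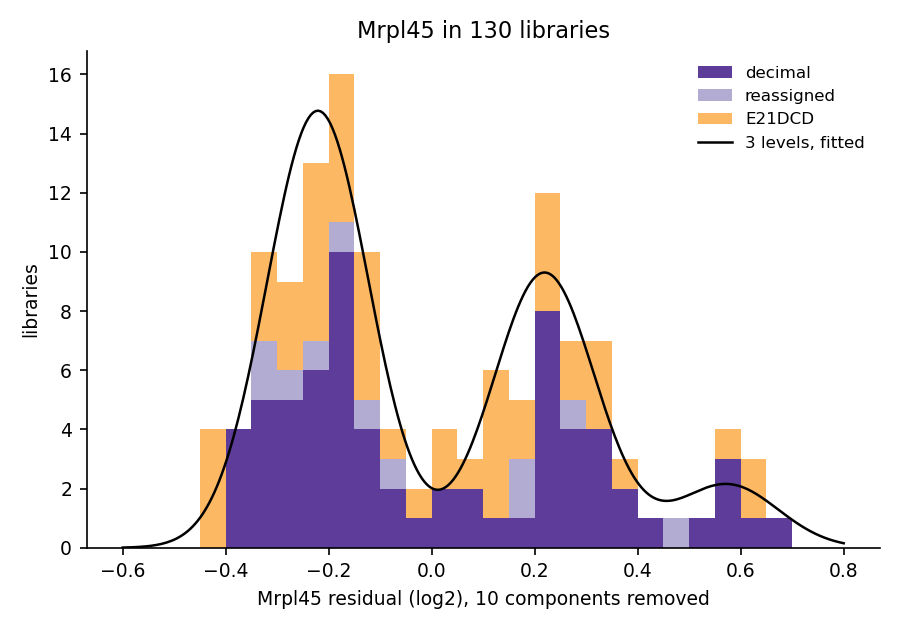
Number of libraries (vertical) by the residual of Mrpl45 in log2 units (horizontal) after 10 components were removed, for 130 libraries, stacked by decimal, reassigned and E21DCD series, with the fitted sum of 3 normal distributions as a line. The fitted peaks lie near -0.22, 0.22 and 0.57, and each holds libraries of all 3 series.

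A few genes close to Mrpl45 on chromosome 10 varied with its residuals. Genes tested within 500 kb that had an r of at least 0.3 in either direction included Nfe2l1 (-0.62), a transcription factor, Mrpl10 (0.41) and Lrrc46 (0.37). On other autosomes, 11 of 13382 genes reached 0.3 (0.0822%), and the r values there were between -0.36 and 0.37. Mrpl10, whose product anchors the stalk of the large subunit and whose gene lies 283 kb from Mrpl45, also ran against Nfe2l1 (-0.49). Over all members 6.26% of pairs with a gene within 500 kb reached 0.3, beside 1.06% of pairs with genes on other autosomes. Over all autosomal genes tested 4.98% of pairs within 500 kb did, so the share for members is near that background.

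Mrps18b had many such neighbours, and it was singled out after its values were seen. Of 31 genes tested within 500 kb, 17 had a residual r of at least 0.3 in either direction. The gene lies on chromosome 20 among genes of the major histocompatibility complex, and the neighbours included RT1-CE16 (0.65), RT1-S2 (-0.64), Abcf1 (0.48) and Atat1 (0.49). RT1 genes are alike in sequence and differ between strains, so estimated counts of single RT1 genes are uncertain. On other autosomes 2.39% of genes reached 0.3 with Mrps18b. Its level was 5.09 to 5.66 in the 7 libraries and 4.16 to 4.96 in the 112, and its r with the other members was 0.77 over 130 but 0.51 over 112 libraries.

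A few pairs of members kept a correlation after the components were removed. The highest were Mrps34 with Mrpl28 (0.44), which lie 1232 kb apart on chromosome 10, Mrps33 with Mrps23 (0.44), Mrps25 with Mrpl52 (0.43), Mrps24 with Mrpl34 (0.42) and Mrpl47 with Mrpl33 (0.41). The other 4 of these pairs lie on different chromosomes. With the components of the 112 libraries alone, r was 0.34, 0.30, 0.22, 0.22 and 0.28 in the same order, so Mrps25 with Mrpl52 and Mrps24 with Mrpl34 fell most. The lowest were Mrpl51 with Mrpl30 (-0.39), Mrpl18 with Mrps5 (-0.28), Mrps10 with Mrpl34 (-0.27), Mrps10 with Mrpl38 (-0.27) and Mrpl13 with Mrps34 (-0.26).

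Levels are not divided by transcript length, since lengths were not used here, so they give no order of abundance between genes. By level alone, Mrpl49, Mrpl17, Mrps2, Mrpl12 and Mrpl4 were highest, at 6.07, 6.04, 5.84, 5.65 and 5.60, and Mrps28, Mrpl32, Mrpl22, Mrpl1 and Mrpl39 lowest, at 3.57, 3.67, 3.72, 3.83 and 3.93. Their SDs over 130 libraries were 0.13 to 0.28.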

How the data were processed

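The deposited table holds, per the submitters' processing notes, kallisto 0.48 estimates of reads per gene, and the authors deposited each value as a log2 estimated count with 1 added first, not scaled for depth. The genome build is not given in the sources used here. Of the labelled samples, 130 have a column and 34 have none, and every column was used. After the log2 had been undone, each library was scaled to a sum of 1000000, giving CPM, and log2(CPM + 1) was used. Depth was 15122563 to 55950487 summed counts per library. Because the deposited unit is log2, no count model was used. Each series was fitted with limma 3.58.1 in R 4.3.3 (trend, 3 groups in 1 fit, two-sided, Benjamini-Hochberg over 15150 genes). Correlations, principal components, the lowess trend (frac 0.3) and mixtures were computed in Python 3.11.15 with numpy 2.4.6, scipy 1.17.1, statsmodels 0.14.6 and pandas 2.3.3, and the figures drawn with matplotlib 3.10.9. Principal components were made from autosomal genes other than the members. The first component of the 119 libraries without the 11 was turned to rise with the mean level of cytosolic ribosomal protein genes. The 7 libraries had a score over 0.2 on it.

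The members, the gene lists and the sets of libraries were chosen with earlier results of these data known. Members named were the 5 highest and lowest in level and in r with the others, the 6 largest SD ratios, members with separated levels, up to 10 of the largest differences in each direction, the 5 extreme pairs at each end, and genes of the mitochondrial ribosome with other symbols. Members named outside this rule, among them Mrps18b, Mrpl51 and the neighbours of members, were chosen after their values were seen. The alternatives tried were leaving out libraries, other mixture limits, covariates, a pseudocount of 0.1, other filters and median-of-ratios size factors. Scripts were tested on simulated data. Sequences are RefSeq's, build GRCr8. A gene near Mrpl45 is not reported here.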

Additional observations from a re-analysis of the deposited data

How the results depend on the processing

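The count of members higher in decimal than in E21DCD libraries, 20 with all libraries, depended on which libraries and covariates entered. It was 8 without the 11 libraries with striatal gene levels and 43 without the 18 that stand apart. With median-of-ratios scaling and without the 18 it was 43 (18.2% of all genes). With the first component of all 130 libraries as a covariate it was 4 (5.41%), as for 5.43% of all genes. Members lower in decimal libraries, 3 with all libraries, numbered 1 without the 11, 0 without the 18 and 0 with median-of-ratios scaling and without the 18. The cause of these changes was not tested. Pseudocount, filters, summed count as a covariate, median-of-ratios scaling alone and leaving out decimal replicate 15 gave 14 to 24 higher and 2 to 4 lower (7.32% to 22.8% and 5.21% to 16.5% of all genes). No member was called between reassigned and E21DCD libraries under any alternative run. The median r between members, 0.57, was 0.053 after 10 components were removed, and 0.46 to 0.71 otherwise, the lowest by median-of-ratios over the 112. Members with separated levels, 1 with all libraries, numbered 3 by median-of-ratios (10.7% of genes), 3 without the 11 (4.8%), 0 without the 18 (0.765%), 0 after 10 components were removed (0.376%), and 15 with means 3 SDs and 0.5 apart (25.0%). Of 32 named members, 11 lost the call between the series without the 11, and 3 lost and 8 gained it without the 18. Under median-of-ratios scaling, without the 11 and without the 18, no called member changed direction, but among those of the 32 not called, Mrpl17 differed by 0.015 without the 18, against -0.037 with all libraries, and Mrps24 by -0.015 without the 11, against 0.051. Fits with median-of-ratios scaling and without the 18, or without decimal replicate 15, were chosen after seeing the data. So was the search that called Mrpl45, with 10 components removed and means 3 SDs and 0.5 apart (1.03% of genes). The 3 sets of Mrpl45 are thus a description. No paired analysis was made, because each library came from 1 rat and the labels pair no rats between the series. The depth limits the precision of the lowest members in the shallowest libraries, and intervals for counting error were not computed from estimated counts.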
